A study of Mus musculus with 9 samples.

Results

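The genes described here govern how a liver cell senses and takes up cholesterol: Srebf1, Srebf2, Scap, Insig1, Insig2, Mylip, Stard4 and Lrp1. These 8 genes were chosen by symbol, out of 54532 gene IDs in the count table, and all 8 were among the 14763 genes tested. RNA-seq was made from 9 livers, 3 in each of 3 groups: HFD + IgG1, HFD + PBS and normal diet. The labels give all groups as male ApoE-/- mice on a C57BL/6 background, a model meant to lack apolipoprotein E, a ligand that lipoprotein particles use to bind their receptors; 3 libraries went against these labels, as given below. In both HFD groups, a high-fat diet of 41% fat, 43% carbohydrate and 17% protein started at 4 weeks of age and ran for 20 weeks, with 1 week of chow after it. HFD + IgG1 mice received 3 mg of a recombinant human IgG1 intraperitoneally at 25, 26 and 27 weeks of age, HFD + PBS mice received PBS at the same ages, and both were killed at 29 weeks. The target of the IgG1 is not named in the sources used here. For the normal diet group neither the age at death nor any injection is given, so in comparisons with it the diet cannot be told apart from these. Livers were picked for sequencing by Oil Red O staining and triglyceride values.

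Sterol regulatory element-binding proteins, encoded by Srebf1 and Srebf2, are transcription factors made as membrane proteins of the endoplasmic reticulum. When sterols are scarce, the escort protein encoded by Scap carries them to the Golgi, where proteases release the part that enters the nucleus. When sterols are plentiful, the proteins encoded by Insig1 and Insig2 hold Scap back. The Srebf2 product mainly drives cholesterol synthesis and the LDL receptor, while the main liver form of the Srebf1 product drives fatty acid synthesis and is itself induced by insulin and by the oxysterol receptor LXR. Transcript levels do not show how much of either protein was cleaved.

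The upstream sequences of 3 of these genes are shown because the promoters of Srebf1, Srebf2 and Insig1 are known targets of the factors that the pathway controls, and because these genes carry most of the values below. They are RefSeq sequences of the build GRCm38.p6, read 5′ to 3′ on the strand of the gene. Capitals mark matches on either strand to the letters TCACNCNA (the sterol regulatory element, which includes the classical form TCACCCCA), to CCAAT or its complement ATTGG, to the GC box GGGCGG or its complement CCGCCC, and to CACGTG or CATGTG.
Srebf1, chr11:60210472-60210721, minus strand, before the most downstream of its 3 RefSeq starts: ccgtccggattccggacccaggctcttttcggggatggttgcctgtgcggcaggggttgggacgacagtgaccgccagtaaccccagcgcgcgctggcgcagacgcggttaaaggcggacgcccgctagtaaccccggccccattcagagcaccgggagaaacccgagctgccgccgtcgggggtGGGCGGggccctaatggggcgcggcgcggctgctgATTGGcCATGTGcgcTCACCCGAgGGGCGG
Srebf2, chr15:82147019-82147180, plus strand: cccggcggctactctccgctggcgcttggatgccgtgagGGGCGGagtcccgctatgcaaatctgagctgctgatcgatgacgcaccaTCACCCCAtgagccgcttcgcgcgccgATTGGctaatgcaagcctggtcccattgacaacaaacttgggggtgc
Insig1, chr5:28071162-28071362, plus strand: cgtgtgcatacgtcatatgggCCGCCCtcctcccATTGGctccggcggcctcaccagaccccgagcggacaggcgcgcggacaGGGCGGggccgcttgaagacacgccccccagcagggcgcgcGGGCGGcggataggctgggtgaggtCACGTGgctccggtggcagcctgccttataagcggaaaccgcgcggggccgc
The Srebf1 stretch ended in a run of matches next to the start: ATTGG at 30 to 26 bases before it, CATGTG at 24 to 19, TCACCCGA at 15 to 8 and GGGCGG at 6 to 1. In the Srebf2 stretch TCACCCCA lay 162 to 155 bases before the RefSeq start, with ATTGG 135 to 131 bases before it. The Srebf2 and Insig1 stretches are printed only up to the first annotated exon base, short of their RefSeq starts at 82147269 and 28071412. The unprinted rest of the Srebf2 window held further GC box matches at 79 to 74, 52 to 47 and 34 to 29 bases before the start. The Insig1 stretch held CACGTG at 101 to 96 bases before its start and no match to TCACNCNA. Among 32851 RefSeq promoters searched over 250 bases upstream, 9.1% held TCACNCNA and 1.34% held TCACCCCA. The letters CCAAT were found in 33.8%, GGGCGG in 32.7%, CATGTG in 12.3% and CACGTG in 6.02% of them. Of the 3 Srebf1 windows, only the one shown held TCACNCNA. The windows before its other starts held no match, nor did those of Insig2, Scap, Lrp1 or Mylip. No window of Stard4 was searched. A match describes the letters only.

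Library depth ran between 16215194 and 18538463 counts. Against the labels, 3 libraries stood apart. HFD + IgG1 replicate 5 held 235888 Apoe counts, while the other 8 libraries held 225 to 1655. HFD + PBS replicate 6 and normal diet replicate 5 held 10970 and 17065 counts of Xist, which marks female tissue, and 0 counts over 4 Y-linked genes. The other 7 libraries had at most 4 Xist counts and 2837 to 3385 Y-linked counts. These 3 are called the discordant libraries below, and results are also given from the other 6, as 6-library values. In the HFD + IgG1 group the treatment label itself reads IgG1 for replicate 5, IgG2 for replicate 6 and IgG3 for replicate 7, though titles and series design place all 3 in that group. Hepatocyte markers summed to 97696 to 171324 CPM (counts scaled to a common library size) in HFD + IgG1, 57531 to 115586 CPM in HFD + PBS and 84829 to 92214 CPM in normal diet livers. Markers of skeletal muscle and pancreatic acinar cells stayed below 2 CPM in sum, with Ckm, Myh4, Pvalb, Cel, Cpa1, Clps and Pnlip at 0 in every library. In bulk liver, fewer cells of a type and less RNA per cell cannot be told apart.

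Per kilobase of exon, Insig2 had the highest level of the 8 genes, with a mean of 110 CPM per kb over the 9 libraries. It was followed by Lrp1 at 98.7 and Insig1 at 83.7 CPM per kb. Lower levels were found for Stard4 and Srebf1, both at 20.1 CPM per kb, Scap at 14.1, Srebf2 at 13.8 and Mylip at 9.91 CPM per kb. In this order the ranges over libraries overlapped between all neighbours. The order depends on the length used, since the median transcript length of each gene placed Lrp1 highest, followed by Insig2 and Scap, and the ranges of those 3 did not overlap. Those median lengths were 772.5, 517.5 and 446 bases, against exon lengths of 17717, 3473 and 7443 bases. The second order therefore rests on short annotated transcripts. Srebf1 varied most, with its highest library 6.36-fold above its lowest, followed by Insig1 at 5.09-fold and Stard4 at 3.47-fold. The other 5 genes varied between 1.76-fold for Insig2 and 2.60-fold for Mylip. Values below are CPM in the replicate order 5, 6 and 7 for HFD + IgG1, 3, 4 and 6 for HFD + PBS, and 4, 5 and 6 for normal diet.

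**Figure D1:**
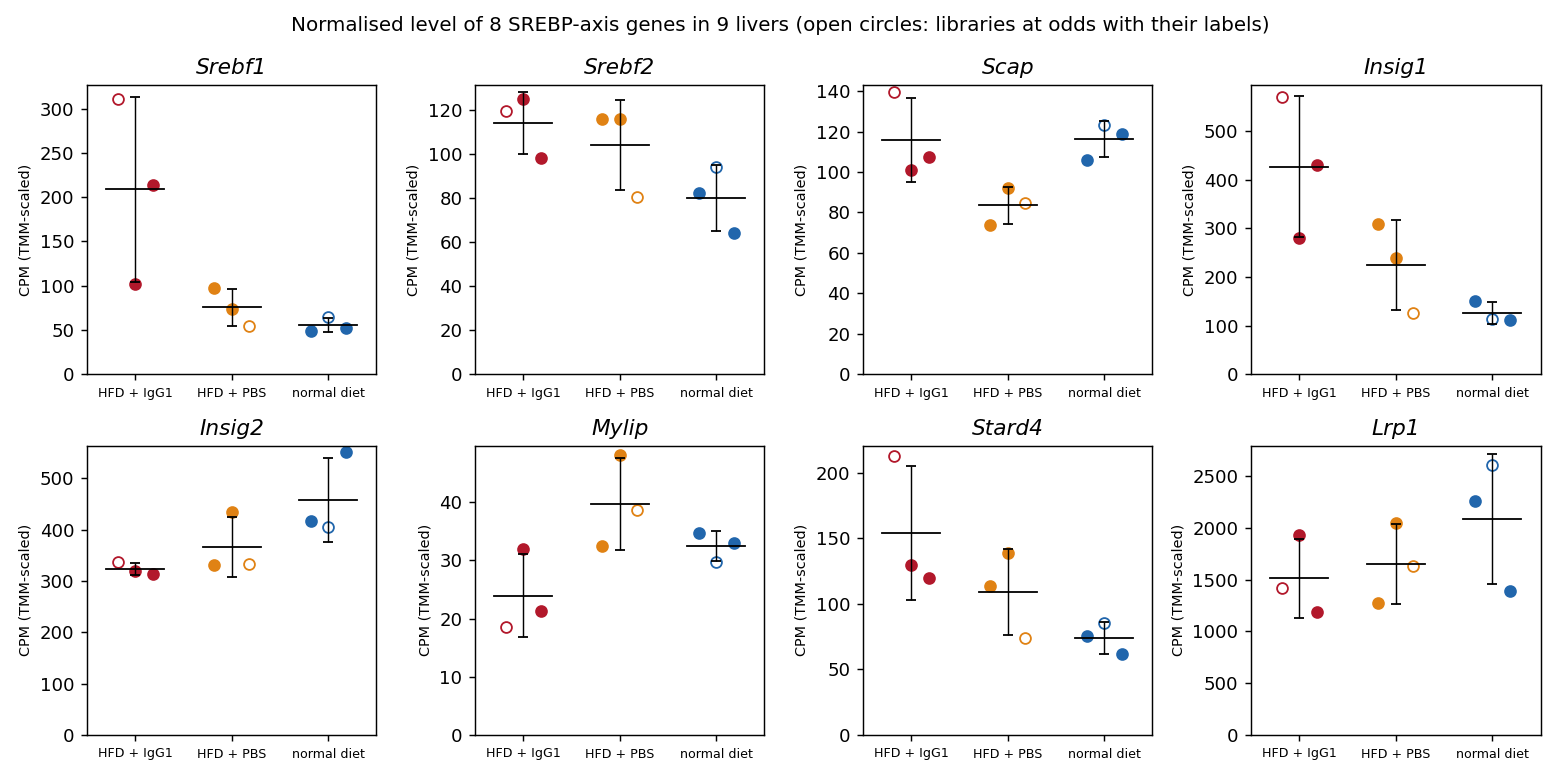
Level of each of the 8 genes in CPM, by library, in HFD + IgG1, HFD + PBS and normal diet livers (circles; open circles are the discordant libraries; bars are mean ± SD, n = 3). Srebf1 reached 311 CPM in HFD + IgG1 replicate 5 and did not exceed 97.2 CPM outside the HFD + IgG1 group.

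Of the transcription factors, Srebf1 had 311, 102 and 213 CPM in HFD + IgG1 livers, 97.2, 74.0 and 54.8 CPM in HFD + PBS livers, and 49.0, 64.6 and 52.5 CPM in normal diet livers. All HFD + IgG1 livers stood above all livers of the other groups, but replicate 6 only narrowly, while HFD + PBS and normal diet livers overlapped. Srebf2 had 119, 125 and 98.1 CPM in HFD + IgG1 livers, 116, 116 and 80.3 CPM in HFD + PBS livers, and 82.1, 94.0 and 64.3 CPM in normal diet livers. HFD + IgG1 livers lay above normal diet livers and overlapped HFD + PBS livers. The exons of Srebf1 share 109 bases, 1.93% of their length, with the opposite-strand gene Rai1, which had 239 to 432 counts, and the strand setting of the counting is not given. In Srebf2, the host gene of the microRNA Mir33, the Mir33 entry had 0 counts in all 9 libraries. Whether these libraries could capture so short an RNA was not tested, so the count does not show that Mir33 was absent.

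Scap, the escort, had 139.8, 100.8 and 107 CPM in HFD + IgG1 livers, 73.7, 92.0 and 84.9 CPM in HFD + PBS livers, and 106, 123 and 119 CPM in normal diet livers. Only the HFD + PBS livers were low, below every liver of both other groups, which overlapped each other. Insig1, a retention protein whose own gene the released factors switch on, had 570.3, 279.9 and 430.3 CPM in HFD + IgG1 livers, 309, 238 and 125 CPM in HFD + PBS livers, and 151, 113 and 112 CPM in normal diet livers. HFD + IgG1 livers lay above normal diet livers, and HFD + PBS livers spread across both. Insig2, the retention protein that is not driven this way, had 336, 318 and 314 CPM in HFD + IgG1 livers, 332, 433 and 333 CPM in HFD + PBS livers, and 416, 404 and 551 CPM in normal diet livers. Its order ran the other way, with HFD + IgG1 livers below normal diet livers.

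Mylip, a ubiquitin ligase that sends the LDL receptor to degradation and is induced by LXR, had 18.5, 32.0 and 21.3 CPM in HFD + IgG1 livers, 32.5, 48.1 and 38.6 CPM in HFD + PBS livers, and 34.7, 29.7 and 32.9 CPM in normal diet livers. HFD + IgG1 livers lay below HFD + PBS livers, although replicate 6, at 32.0 CPM, was close to the lowest of them. Stard4, a soluble carrier of cholesterol between membranes, had 213, 129.6 and 119.9 CPM in HFD + IgG1 livers, 114, 139 and 73.7 CPM in HFD + PBS livers, and 75.2, 85.0 and 61.4 CPM in normal diet livers. HFD + IgG1 livers were above normal diet livers and overlapped HFD + PBS livers. Lrp1, an endocytic receptor that clears lipoprotein remnants, had 1421, 1928 and 1187 CPM in HFD + IgG1 livers, 1273, 2045 and 1631 CPM in HFD + PBS livers, and 2256, 2613 and 1387 CPM in normal diet livers. Its groups overlapped in all 3 comparisons.

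**Figure D2:**
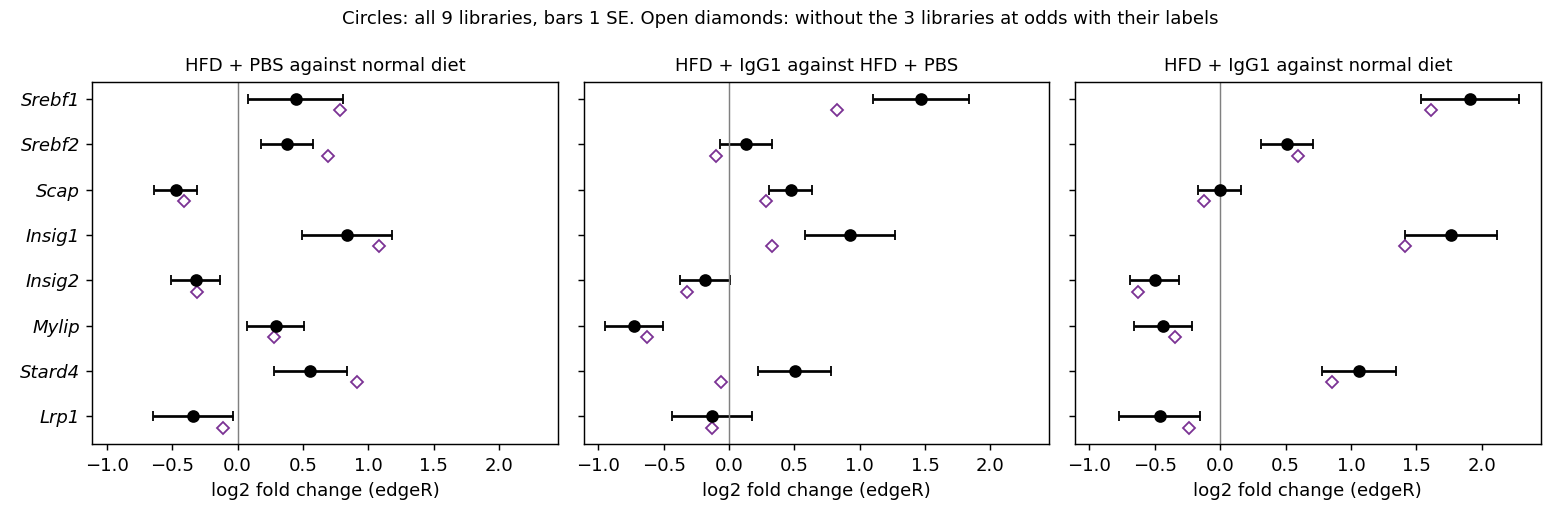
log2 fold change of the 8 genes in each comparison from edgeR over all 9 libraries (circles, bars 1 SE) and without the 3 discordant libraries (open diamonds). Srebf1 and Insig1 lay farthest above 0 in HFD + IgG1 against normal diet, at 1.91 and 1.77.

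HFD + IgG1 against HFD + PBS compares livers on the same diet with and without the antibody injections. The discordant libraries HFD + IgG1 replicate 5, with its Apoe counts, and HFD + PBS replicate 6, with its Xist counts, lie in opposite arms. With them included, these differences cannot be told apart from the injections. Nor can the differing treatment labels or the picking of livers by staining and triglycerides. Srebf1 averaged 209 ± 105 CPM in HFD + IgG1 livers and 75.3 ± 21.3 CPM in HFD + PBS livers (SD, n = 3 each), which is 1.47 on the log2 scale (SE 0.37). Mylip averaged 23.9 ± 7.14 CPM in HFD + IgG1 livers and 39.7 ± 7.90 CPM in HFD + PBS livers, a log2 fold change of -0.73 (SE 0.22). The log2 fold change of Insig1 was 0.93 (SE 0.35) and that of Scap 0.47 (SE 0.16), while those of Stard4 (0.50, SE 0.28), Srebf2 (0.13, SE 0.20), Insig2 (-0.18, SE 0.19) and Lrp1 (-0.13, SE 0.31) were smaller against their errors. None of the 8 passed edgeR's quasi-likelihood test, with adjusted p of 0.140 for Srebf1 and Mylip, 0.148 for Scap and 0.161 for Insig1, and 0% of all genes tested passed it. At an unadjusted edgeR p under 0.05 there were 3 of the 8 higher and 1 lower, where 12.6% of all genes were higher and 11.6% lower. The groups did not overlap for 3 of the 8 (Srebf1 and Scap higher, Mylip lower), where 26.5% of all genes did not overlap. DESeq2 called 2 of the 8, Srebf1 with an adjusted p of 0.00715 and Mylip with 0.0415, against 8.49% of all genes, and limma-voom called 0. Without the 3 discordant libraries, the log2 fold changes were 0.83 for Srebf1, 0.33 for Insig1, -0.63 for Mylip, 0.29 for Scap and -0.058 for Stard4. Without HFD + IgG1 replicate 6, edgeR called Srebf1 (log2 fold change 1.80), Insig1 (1.16) and Mylip (-0.99), in a fit that called 15.5% of all genes. Without HFD + IgG1 replicate 5, the log2 fold changes of Srebf1, Scap and Stard4 were 1.02, 0.28 and 0.16, and Srebf1 had an edgeR adjusted p of 0.437. Leaving out 1 library at a time moved Insig1 between 0.62 and 1.20 and Mylip between -0.99 and -0.60.

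HFD + IgG1 against normal diet sets antibody-treated livers on the high-fat diet beside those on normal diet. Here too discordant libraries lie in opposite arms, HFD + IgG1 replicate 5 with its Apoe counts and normal diet replicate 5 with its Xist counts. With them included, these differences cannot be told apart from the diet and the injections. Srebf1 averaged 209 ± 105 CPM in HFD + IgG1 livers and 55.4 ± 8.21 CPM in normal diet livers (SD, n = 3 each), which is 1.91 on the log2 scale (SE 0.37). Insig1 averaged 427 ± 145 CPM in HFD + IgG1 livers and 125 ± 22.1 CPM in normal diet livers, a log2 fold change of 1.77 (SE 0.35). Stard4 had a log2 fold change of 1.06 (SE 0.28) and Srebf2 one of 0.51 (SE 0.20), while Insig2 had -0.50 (SE 0.19), Lrp1 -0.46 (SE 0.31) and Mylip -0.44 (SE 0.22). The log2 fold change of Scap was -0.0016 (SE 0.16). By edgeR 0 of the 8 passed, with an adjusted p of 0.414 for Srebf1 and Insig1, among 0% of all genes. At an unadjusted edgeR p under 0.05 there were 4 of the 8 higher and 1 lower, where 3.83% of all genes were higher and 3.21% lower. The groups did not overlap for 5 of the 8 (Srebf1, Srebf2, Insig1 and Stard4 higher, Insig2 lower), where 11.9% of all genes did not overlap. DESeq2 called Srebf1 (adjusted p 0.000152) and Insig1 (0.000392), against 0.834% of all genes, and limma-voom called 0. The 6-library log2 fold changes were 1.61 for Srebf1, 1.41 for Insig1, 0.85 for Stard4 and -0.62 for Insig2. They were 0.59 for Srebf2, -0.35 for Mylip, -0.24 for Lrp1 and -0.13 for Scap. In that fit edgeR called 0 genes, with an adjusted p of 0.930 for Srebf1 and Insig1. Without HFD + IgG1 replicate 6, edgeR called Srebf1 at 2.24, in a fit that called 0.0394% of all genes. Mylip was -0.29 without HFD + IgG1 replicate 5 and -0.70 without replicate 6, and Lrp1 was -0.27 without normal diet replicate 5.

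HFD + PBS against normal diet asks about the diet without the antibody. Insig1 had the highest log2 fold change, 0.84 (SE 0.35), from 224 ± 92.6 CPM in HFD + PBS livers and 125 ± 22.1 CPM in normal diet livers (SD, n = 3 each). Scap had the lowest, -0.47 (SE 0.16), from 83.5 ± 9.20 CPM in HFD + PBS livers and 116 ± 8.89 CPM in normal diet livers. Stard4 had 0.56 (SE 0.28), Srebf1 0.44 (SE 0.36), Srebf2 0.38 (SE 0.20), Mylip 0.29 (SE 0.22), Insig2 -0.32 (SE 0.19) and Lrp1 -0.34 (SE 0.31). By edgeR 0 of the 8 passed, with adjusted p between 0.164 for Scap and 0.554 for Lrp1, among 0% of all genes. At an unadjusted edgeR p under 0.05 there were 1 of the 8 higher and 1 lower, where 9.41% of all genes were higher and 11.4% lower. Only Scap had groups that did not overlap, 1 of the 8, where 28.3% of all genes did not overlap. DESeq2 and limma-voom both called 0 of the 8, and DESeq2 called 8.03% of all genes. In HFD + PBS replicate 6, a discordant library, Srebf1, Srebf2, Insig1 and Stard4 differed from the normal diet mean by -0.0051, 0.019, 0.014 and 0.0091 on the log2(CPM + 1) scale. The 6-library log2 fold changes, which leave that library out, were 1.08 for Insig1, 0.91 for Stard4, 0.78 for Srebf1 and 0.69 for Srebf2. Other libraries lowered them, to 0.24 for Srebf1 without HFD + PBS replicate 3, 0.24 for Srebf2 without normal diet replicate 6 and 0.37 for Stard4 without HFD + PBS replicate 4. Leaving out 1 library moved Mylip between 0.15 and 0.44, Insig2 between -0.43 and -0.17 and Lrp1 between -0.56 and -0.14. The HFD + PBS libraries serve in 2 of the comparisons with opposite sign, as for Scap, so those comparisons are not independent.

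Ratios of 2 genes within a library do not depend on library scaling. Insig1 over Insig2, per kb of exon, was 1.91, 0.987 and 1.54 in HFD + IgG1 livers, 1.05, 0.617 and 0.423 in HFD + PBS livers, and 0.408, 0.315 and 0.228 in normal diet livers. Every high-fat diet liver was above every normal diet liver, and the HFD + IgG1 and HFD + PBS livers overlapped. Srebf1 over Srebf2, per kb of exon, was 3.33, 1.04 and 2.77 in HFD + IgG1 livers, 1.07, 0.814 and 0.870 in HFD + PBS livers, and 0.760, 0.877 and 1.04 in normal diet livers. HFD + IgG1 replicates 5 and 7 stood above all other livers, and replicate 6 lay among them. The mean log2 ratios were compared with exact two-sided permutation tests over libraries, which cannot go below a p of 0.1 for 3 against 3, and 6 such tests were made. For Insig1 over Insig2 the difference was 1.14 in HFD + IgG1 against HFD + PBS (exact p = 0.2, adjusted 0.24), 2.21 in HFD + IgG1 against normal diet and 1.07 in HFD + PBS against normal diet (exact p = 0.1, adjusted 0.2, for both). For Srebf1 over Srebf2 it was 1.22 in HFD + IgG1 against HFD + PBS (exact p = 0.2, adjusted 0.24), 1.26 in HFD + IgG1 against normal diet (exact p = 0.1, adjusted 0.2) and 0.042 in HFD + PBS against normal diet (exact p = 0.8, adjusted 0.8).

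**Figure D3:**
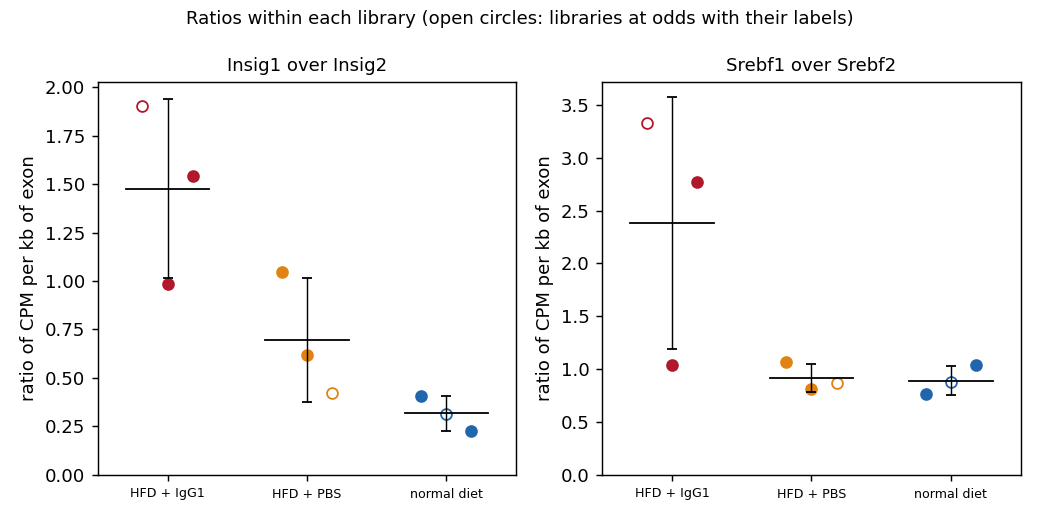
Ratio of Insig1 over Insig2 and of Srebf1 over Srebf2, from CPM per kb of exon, in each library (circles, open for discordant libraries; bars are mean ± SD, n = 3). Insig1 over Insig2 averaged 1.48 in HFD + IgG1, 0.696 in HFD + PBS and 0.317 in normal diet livers.

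The machinery around these genes was described with lists of pathway genes, none of whose members passed edgeR's test in any comparison. Of 15 genes for SREBP cleavage, exit from the endoplasmic reticulum and Insig turnover, 14 had positive log2 fold changes in HFD + IgG1 against HFD + PBS, with a median of 0.36 against 0.036 over all genes, of which 52.8% were positive. That median was 0.24 without HFD + IgG1 replicate 7 and 0.17 with the replicate number as a block. In HFD + PBS against normal diet 14 of the 15 were negative, with a median of -0.29 against -0.0028 over all genes, of which 49.7% were positive, and the median was -0.15 without HFD + PBS replicate 3. Of the 15, 10 were positive in HFD + IgG1 against normal diet, with a median of 0.099 that was -0.072 in the 6 libraries. Erlin1, part of a complex that takes Insig to degradation, averaged 64.7 ± 2.99 CPM in HFD + IgG1 livers and 45.9 ± 2.53 CPM in HFD + PBS livers. Sec24a, a coat protein of vesicles leaving the endoplasmic reticulum, averaged 144 ± 28.5 CPM in HFD + IgG1 livers and 93.4 ± 19.8 CPM in HFD + PBS livers. Mbtps1, the protease that makes the initial cut in the factors, averaged 72.8 ± 3.71 CPM in HFD + PBS livers and 93.3 ± 11.2 CPM in normal diet livers. At an unadjusted edgeR p under 0.05, 5 of the 15 were higher and 0 lower in HFD + IgG1 against HFD + PBS, where 12.6% of all genes were higher and 11.6% lower. In HFD + PBS against normal diet 1 was higher and 4 lower, where 9.41% of all genes were higher and 11.4% lower.

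Of 19 cholesterol synthesis enzymes, all 19 had positive log2 fold changes in HFD + IgG1 against normal diet (median 1.31 against 0.0032 over all genes, of which 50.4% were positive) and in HFD + PBS against normal diet (median 1.16), while 16 were positive in HFD + IgG1 against HFD + PBS (median 0.14). DESeq2 called 10, 13 and 0 of them in those comparisons, where it called 0.834%, 8.03% and 8.49% of all genes. Mvd, the enzyme that makes isopentenyl diphosphate from mevalonate diphosphate, averaged 39.6 ± 7.54 CPM in HFD + IgG1 livers and 6.12 ± 1.47 CPM in normal diet livers. It averaged 33.0 ± 12.8 CPM in HFD + PBS livers. The 6-library medians were 1.31, 1.72 and -0.31, so the sign in HFD + IgG1 against HFD + PBS turned when the discordant libraries were left out. It also turned without HFD + PBS replicate 6 (-0.13) or HFD + IgG1 replicate 5 (-0.0416) alone. Other settings raised that median, to 0.37 without HFD + PBS replicate 3 and 0.66 with the replicate number as a block. Of 15 fatty acid synthesis genes tested, 13 were positive in HFD + IgG1 against HFD + PBS, with a median of 0.67 that was 0.019 in the 6 libraries and 0.33 without HFD + IgG1 replicate 5. Of the 15, 12 were positive in HFD + IgG1 against normal diet, with a median of 0.79. HFD + PBS against normal diet was mixed, with 10 of the 15 positive and a median of 0.37 (0.21 without HFD + PBS replicate 3). At an unadjusted edgeR p under 0.05, 4 were higher and 3 lower there, where 9.41% of all genes were higher and 11.4% lower. Me1, the malic enzyme that supplies NADPH, averaged 19.7 ± 4.60 CPM in HFD + PBS livers and 94.5 ± 26.2 CPM in normal diet livers. Elovl5, which lengthens polyunsaturated fatty acids, averaged 245 ± 71.5 CPM in HFD + PBS livers and 512 ± 165 CPM in normal diet livers. Scd1, which desaturates fatty acids, averaged 7081 ± 2791 CPM in HFD + IgG1 livers and 759 ± 397 CPM in normal diet livers. Fasn, the fatty acid synthase, averaged 481 ± 232 CPM in HFD + IgG1 livers and 100.5 ± 12.9 CPM in normal diet livers.

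Of 11 LXR receptors and targets, 7 had negative log2 fold changes in HFD + IgG1 against HFD + PBS, with a median of -0.30 that was -0.048 without HFD + PBS replicate 6, and 8 in HFD + IgG1 against normal diet, with a median of -0.19. In HFD + PBS against normal diet 4 were negative, with a median of 0.070. The list did not move one way in HFD + IgG1 against HFD + PBS. Without overlap of the groups, 3 genes were higher and 1 lower, where 26.5% of all genes did not overlap. At an unadjusted edgeR p under 0.05, 1 was higher and 3 lower, where 12.6% of all genes were higher and 11.6% lower. Lpcat3, which remodels membrane phospholipids and had the list's smallest p there, averaged 68.8 ± 10.6 CPM in HFD + IgG1 livers and 51.5 ± 0.483 CPM in HFD + PBS livers. In normal diet livers Lpcat3 averaged 79.1 ± 1.35 CPM. Abcg1, a sterol exporter, averaged 22.9 ± 10.96 CPM in HFD + IgG1 livers and 40.8 ± 11.2 CPM in HFD + PBS livers, with overlap. Of 17 genes of the LDL receptor family and its endocytic partners, medians lay between -0.019 and 0.12 in the 3 comparisons. Lrp6, a receptor of this family known from Wnt signalling, averaged 92.7 ± 12.4 CPM in HFD + PBS livers and 157 ± 20.8 CPM in normal diet livers, a log2 fold change of -0.76 (SE 0.16) with an edgeR adjusted p of 0.0786. Of 14 intracellular sterol carriers and storage genes, medians lay between -0.0061 and 0.025. Scp2, a peroxisomal sterol carrier, averaged 3439 ± 1235 CPM in HFD + IgG1 livers and 1375 ± 205 CPM in HFD + PBS livers. In normal diet livers Scp2 averaged 3023 ± 1266 CPM, so HFD + PBS was the low group.

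**Figure D4:**
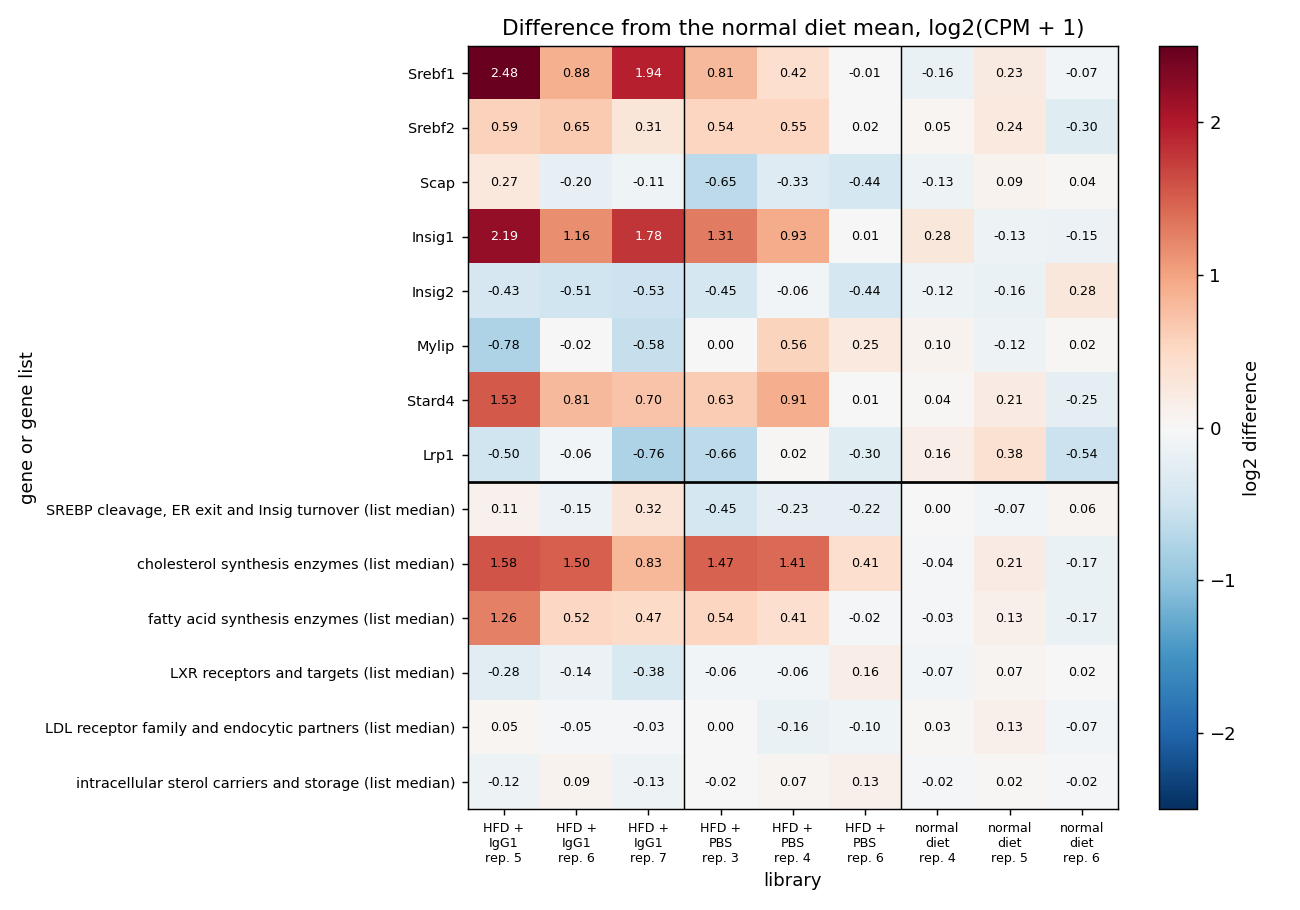
Difference of each library from the normal diet mean on the log2(CPM + 1) scale, for the 8 genes and the median of 6 pathway lists. The cholesterol synthesis median was 1.58, 1.502 and 0.83 in HFD + IgG1 replicates 5, 6 and 7, and 1.47, 1.41 and 0.41 in HFD + PBS replicates 3, 4 and 6.

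Library by library, the cholesterol synthesis median and Srebf1 did not keep the same order. HFD + IgG1 replicate 7 was 1.94 above the normal diet mean for Srebf1 and 0.83 above it for the list, on the log2(CPM + 1) scale. Replicate 6 was 0.88 above it for Srebf1 and 1.502 above it for the list. On the same scale Srebf2 was 0.59, 0.65 and 0.31 above it in HFD + IgG1 replicates 5, 6 and 7. In HFD + PBS replicates 3, 4 and 6 Srebf2 was 0.54, 0.55 and 0.019 above it. Srebf2 and the list thus had the same lowest library in each of these groups. Any link between them was not tested.

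Markers of other liver cells differed in direction between the comparisons, although edgeR called 0 of them in any. All 10 macrophage and Kupffer cell markers had negative log2 fold changes in HFD + IgG1 against HFD + PBS, and their summed level was 797 to 2843 CPM in HFD + IgG1, 2880 to 3430 CPM in HFD + PBS and 1990 to 2600 CPM in normal diet livers. All 7 neutrophil markers were negative in the same comparison, with sums of 13.2 to 487 CPM in HFD + IgG1, 402 to 3012 CPM in HFD + PBS and 34.9 to 155 CPM in normal diet livers. The 10 stellate cell and fibroblast markers were also all negative, with sums of 428 to 623 CPM in HFD + IgG1, 592 to 856 CPM in HFD + PBS and 479 to 742 CPM in normal diet livers. Of 7 endothelial markers 6 were negative, with sums of 298 to 540 CPM in HFD + IgG1, 391 to 627 CPM in HFD + PBS and 468 to 515 CPM in normal diet livers. Of 6 cholangiocyte markers 5 were negative, with sums of 25.2 to 33.8 CPM in HFD + IgG1, 32.8 to 84.2 CPM in HFD + PBS and 16.2 to 21.4 CPM in normal diet livers. In HFD + PBS against normal diet all 10 macrophage, all 7 neutrophil and all 6 cholangiocyte markers were positive, and in HFD + IgG1 against normal diet all 9 hepatocyte markers were positive and all 10 macrophage markers negative. The part of these markers in the values of the 8 genes and of the pathway lists was not tested.

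The genes whose pattern over the 9 libraries was most like that of the most variable members were found by the root mean square difference of centred log2(CPM + 1), among 13223 tested genes with a mean of at least 1 CPM. For Srebf1 these were Cyp2c55 at 0.31, Insig1 at 0.32 and Mid1ip1 at 0.33. For Insig1 they were Tmem28 at 0.24, Fasn at 0.31 and Mid1ip1 at 0.31. For Stard4 they were Aldoc at 0.097, Acaca at 0.11 and Acss2 at 0.15. Cyp2c55 and Tmem28 had low levels, at 0.557 to 6.85 and 0.0557 to 3.71 CPM over the 9 libraries. Their matches therefore rest on few counts in some libraries. Differences grow with a gene's own spread, which was 0.93 for Srebf1, 0.86 for Insig1 and 0.56 for Stard4 (SD of log2(CPM + 1)), so they are not compared between members.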

How the data were processed

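Liver RNA of 9 mice was sequenced from NEBNext Ultra libraries of 1 µg of RNA, per the labels' protocols. The authors deposited raw counts, as whole numbers, for each Ensembl gene ID. The submitters' processing notes name Bowtie 0.12.2 and the build mm10; no source used here gives the counting program or its strand setting. Gene names and exon lengths came from GENCODE M21, which named 54495 of 54532 IDs.

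Counts were tested in R 4.3.3 with edgeR 4.0.16 (TMM factors, filterByExpr with a minimum count of 10 and minimum total of 15, glmQLFit with robust = TRUE, two-sided, Benjamini-Hochberg over 14763 genes, threshold 0.05). One model of group means covered all 9 libraries, with 6 residual degrees of freedom and a common dispersion of 0.101. CPM are counts over the TMM-scaled total of the tested genes. Printed log2 fold changes are shrunken by a prior count of 2. Each SE is the size of the unshrunken estimate divided by the root of the F statistic. The edgeR default prior count was also tried, after the values had been seen and because a fold change differed slightly from an earlier analysis of these data; it altered no p. The p-values measure the spread between livers of separate mice, and total counts of 16215194 to 18538463 limit the precision of low genes.

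The genes and lists were chosen with earlier results of these data known. Up to 4 genes of a list with the smallest p in a comparison were named, and the 3 most similar genes for members with an SD of at least 0.5. Same-numbered libraries in different groups (5 pairs) had correlations of deviations from -0.54 to 0.032, so the numbers were not taken to pair them. The workflow was tested on simulated data. Ratio tests were added after their values had been seen. Alternatives were DESeq2 1.42.0, limma-voom (limma 3.58.1), RLE and upper-quartile factors, other filters, robust = FALSE, fewer libraries, the replicate number as a block, another gene length and each library left out in turn.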

Additional observations from a re-analysis of the deposited data

How the results depend on the processing

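The number of genes called depended on the test and on single libraries. In HFD + PBS against normal diet, where edgeR called 0 genes and 3076 had an unadjusted p under 0.05, DESeq2 called 1184, edgeR with no filter on low counts 274, with the 6 libraries compared 184, and without the 3 discordant libraries 2. Leaving out 1 library gave 0 to 576, with 14 without HFD + PBS replicate 6 and 576 without HFD + IgG1 replicate 6. In HFD + IgG1 against HFD + PBS (0 by edgeR, 3569 unadjusted), DESeq2 called 1251, no filter 57, only the library labelled IgG1 556, and leaving out 1 library gave 0 to 2356, the highest without HFD + IgG1 replicate 6. In HFD + IgG1 against normal diet (0 by edgeR, 1040 unadjusted), DESeq2 called 111, no filter 6, the 6 libraries compared 3, only the library labelled IgG1 3, and leaving out 1 library gave 0 to 6, with 4 without HFD + PBS replicate 6 and 6 without HFD + IgG1 replicate 6. limma-voom called 0 in all 3 comparisons.

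Of the 8 genes, in HFD + IgG1 against HFD + PBS DESeq2 called 2, where it called 8.49% of all genes. Leaving out 1 library called 0 to 3 of the 8. The 3 came without HFD + IgG1 replicate 6, in a fit that called 15.5% of all genes. With only the library labelled IgG1, the log2 fold change of Srebf1 stayed positive. In HFD + IgG1 against normal diet DESeq2 called 2 of the 8, where it called 0.834% of all genes. Leaving out 1 library called 0 to 1 of the 8 there. Without HFD + IgG1 replicate 6 it was 1, in a fit that called 0.0394% of all genes. The causes were not tested. Fits on the library labelled IgG1 have 1 sample in that arm, assumed to vary like the other groups. Some log2 fold changes reversed. In HFD + IgG1 against HFD + PBS these were Srebf2 (-0.10 without the 3 discordant libraries, -0.022 without HFD + PBS replicate 6, up to 0.20 without another library), Stard4 (0.50 over 9 libraries, -0.058 without those 3) and Lrp1 (0.021 without HFD + PBS replicate 4, and down to -0.34 without another). In HFD + IgG1 against normal diet Scap was 0.0034 with a filter of 1 CPM in 3 libraries, 0.27 with only the library labelled IgG1, and -0.17 to 0.093 with 1 library left out. Of 496 member fold changes under alternatives, 476 kept their direction and side of the threshold, 9 passed it and 11 reversed. edgeR's default prior count, tried after seeing the data, moved a member by at most 0.0025 (Mylip) and the low-count gene Lrp8 by 0.34.

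With the replicate number as a block, edgeR called 0 in each comparison (981, 370 and 396 genes at an unadjusted p under 0.05, in the order above). HFD + PBS replicate 3 and HFD + IgG1 replicate 7 share their number with no other library, so they do not inform the group differences in that fit. It also keeps fewer residual degrees of freedom than the main fit, so its 0 calls decide little. Upper-quartile factors changed the split of unadjusted calls in HFD + PBS against normal diet to 1658 higher and 1369 lower (1389 and 1687 with TMM), and in HFD + IgG1 against HFD + PBS to 1369 and 1996 (1863 and 1706 with TMM). With the median transcript length, the mean levels per kb of Lrp1, Insig2, Scap, Srebf1, Insig1, Stard4, Srebf2 and Mylip were 2264, 738, 236, 150.4, 149.9, 117, 50.2 and 12.8 CPM.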
